A study of Rattus norvegicus with 15 samples.

Results

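The S100 genes encode small calcium-binding proteins, and 8 of them were followed here in cultured bone marrow mesenchymal stem cells of the rat: S100a1, S100a4, S100a6, S100a10, S100a11, S100a13, S100a16 and S100b. They were taken by name, as the rows of the expression table that carry these symbols. The list of names was drawn up with earlier results of these data known. All 8 had a row among the 12169 genes of the table, and all 8 were among the 11515 genes tested. S100b entered the test only through the libraries labelled shLuci, the 3 libraries in which it reached 1 FPKM (fragments scaled for transcript length and for library size).

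The cells were grown from femoral marrow of the Sprague Dawley rat strain and were at passage 3 to 5. The 15 RNA-seq libraries fell into 5 groups of 3: uninfected cells (BMSC), cells infected with a lentivirus labelled shLuci, cells infected with a lentivirus labelled shRac1, and each kind of infected cell after 12 h in glucose-free medium at 1% oxygen with 24 h of reoxygenation (shLuci+OGD and shRac1+OGD). The undeprived groups were kept in high-glucose medium. No uninfected cells were deprived, so every OGD library also carried a virus, and every infected library carried a hairpin. The labels do not say whether the replicates of a group were separate cultures or animals, so the p-values below measure the spread between these libraries, which may be technical. In bulk RNA of this kind, fewer cells expressing a gene and less RNA per cell cannot be told apart.

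S100 proteins are small EF-hand proteins that mostly work as dimers. On binding calcium they open a surface that grips target proteins such as annexins, non-muscle myosin and other cytoskeletal or signalling proteins, and several are also released from cells and bind receptors such as RAGE. S100a10 is the exception, since its EF hands do not bind calcium and it sits in a permanent complex with annexin A2. In fibroblasts and mesenchymal stromal cells S100a4 and S100a6 are known as abundant transcripts, whereas S100b is best known from astrocytes, Schwann cells and cartilage.

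The promoters of the 2 members whose level changed most, S100a16 and S100b, and of 2 abundant members, S100a4 and S100a6, are shown because the groups below differed in RNA level and the start region is where the genes can be compared as sequence. They are RefSeq sequences of the GRCr8 assembly, 250 bases before to 50 bases after the gene start, written 5′ to 3′ on the strand of the gene, and 6 of the 8 members were matched (S100a1 and S100a10 were not analysed here). Capitals mark a match to any of 4 motifs searched on both strands: the AP-1 site TGANTCA, the TEAD site GGAATG, the core of the hypoxia response element ACGTG, and the TATA box TATAAA. The S100a16 promoter lies at chr2:178313736-178314035 on the plus strand, S100b at chr20:12381032-12381331 on the minus strand, S100a4 at chr2:178388279-178388578 on the plus strand and S100a6 at chr2:178398287-178398586 on the plus strand.
S100a16: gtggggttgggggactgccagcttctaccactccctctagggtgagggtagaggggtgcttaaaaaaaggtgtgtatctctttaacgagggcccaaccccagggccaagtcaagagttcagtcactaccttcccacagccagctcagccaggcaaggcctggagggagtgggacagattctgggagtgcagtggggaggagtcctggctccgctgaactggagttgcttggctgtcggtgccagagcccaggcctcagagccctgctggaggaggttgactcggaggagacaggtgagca
S100b: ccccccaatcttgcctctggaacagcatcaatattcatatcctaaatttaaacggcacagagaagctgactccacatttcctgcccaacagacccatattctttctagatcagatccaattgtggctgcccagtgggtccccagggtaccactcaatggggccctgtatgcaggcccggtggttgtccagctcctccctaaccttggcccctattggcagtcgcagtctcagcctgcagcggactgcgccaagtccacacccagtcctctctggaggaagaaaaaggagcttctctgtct
S100a4: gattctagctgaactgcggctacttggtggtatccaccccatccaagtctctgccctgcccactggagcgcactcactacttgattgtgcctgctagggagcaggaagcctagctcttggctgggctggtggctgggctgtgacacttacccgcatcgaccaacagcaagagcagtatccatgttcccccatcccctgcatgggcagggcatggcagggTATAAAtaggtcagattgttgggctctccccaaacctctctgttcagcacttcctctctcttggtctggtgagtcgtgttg
S100a6: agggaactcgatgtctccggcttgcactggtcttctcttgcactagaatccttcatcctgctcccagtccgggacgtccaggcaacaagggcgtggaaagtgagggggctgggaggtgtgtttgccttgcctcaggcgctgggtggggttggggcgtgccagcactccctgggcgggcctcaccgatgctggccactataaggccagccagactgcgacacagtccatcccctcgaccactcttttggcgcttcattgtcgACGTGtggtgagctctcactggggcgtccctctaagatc

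Among the 6 promoters only S100a4, with a TATA box starting 31 bases before the gene start (position -31), and S100a6, with the hypoxia core at position 11 after it, held a match. The S100a16 and S100b windows held none of the 4 motifs. Of 33469 rat promoters of this length, 14.2% held the TATA box, 19.3% the hypoxia core, 7.33% the AP-1 site and 14.2% the TEAD site, so each of these motifs is missing from most promoters. The S100a6 window had 15 CpG dinucleotides and the S100a16, S100b and S100a4 windows had 4, 5 and 5, against a median of 7 over all promoters. GC content was 60% for S100a16, 54% for S100b, 56.3% for S100a4 and 61.3% for S100a6, above the median of 51.7% in each case. These matches are descriptions of letters in a window and were not tied to any measurement of binding.

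Before any S100 value, 3 facts about the libraries bear on what follows. Rac1, the gene named by the hairpin, had 147 ± 4.96 FPKM (SD, n = 3) in the libraries labelled shRac1 and 156 ± 9.90 in shLuci, and the log2 change of -0.09 ± 0.08 (SE) did not pass limma's test (adjusted p = 0.577). The name shRac1 is therefore used below only as the label of those libraries. BMSC replicate 2 stood apart: its FPKM summed to 628685 against 463945 to 516495 in the other 14 libraries, and 144 genes were listed at 0 against 42 to 78. Mesenchymal markers were high in every library, since the 8 of 13 fixed markers with a row summed to 8578.7 to 10585.5 FPKM. Of the blood markers, 3 of 11 macrophage markers had a row and summed to 7.92 to 15.3 FPKM. Of 8 erythroid markers 0 were among the rows used here. Read depth is unknown because only FPKM were used.

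Most of the S100 transcript level was carried by 4 genes. By mean FPKM over the 15 libraries, S100a6 ranked 18 of 12169 genes, S100a11 ranked 25, S100a4 ranked 33 and S100a10 ranked 35. Their FPKM made up 99.2% to 99.7% of the sum over the 8 members in every library. The other 4 members were far lower: S100a13 ranked 4718, S100a16 ranked 6824, S100a1 ranked 9996 and S100b ranked 11823. The 8 members together took 0.991% to 1.31% of the FPKM total in 14 libraries and 1.68% in BMSC replicate 2, as the plot of the family's share by library shows.

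**Figure D1:**
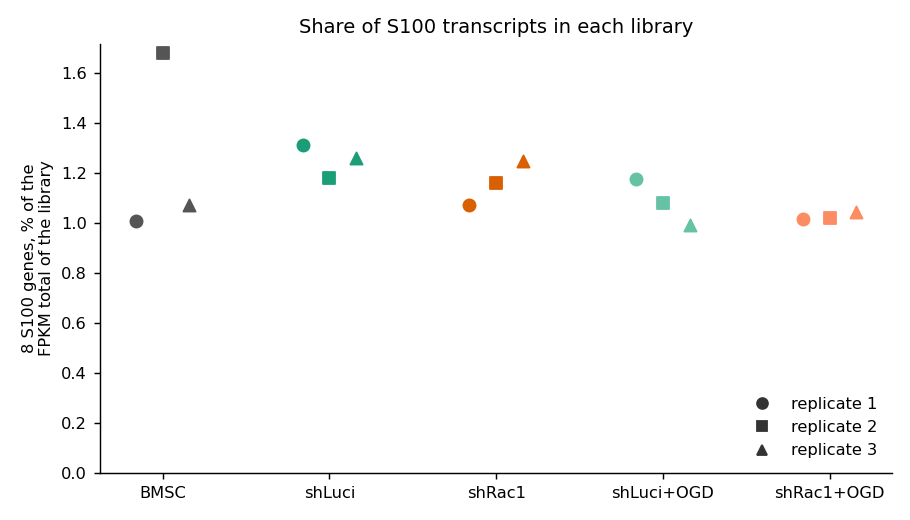
Share of the FPKM total of each library taken by the 8 S100 genes, in percent, with 1 point per library in 5 groups of 3. In 14 libraries the share lay between 0.991% and 1.31%, and in BMSC replicate 2 it was 1.68%.

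Across the 5 groups 2 members changed and the other 6 passed no test. All 10 pairs of groups were compared in a single limma fit on log2(FPKM + 0.5), and a change counts as called where its adjusted p was below 0.05. S100a16 was called in 8 of 10 pairs and S100b in 7 of 10, whereas S100a1, S100a4, S100a6, S100a10, S100a11 and S100a13 were called in 0 of 10. In the single pairs 7.43% to 31% of all genes tested were called. The share of all genes called in a given number of pairs was not computed, so these counts are description. The range of the group means on the log2 scale was 3.92 for S100a16, wider than in 99.9% of the tested genes. For S100b it was 2.01, wider than in 98.2%. The shLuci libraries that admitted S100b to the test also set the top of its range. For S100a1 it was 0.98, wider than in 86.0%, and for the remaining 5 genes it was 0.36 to 0.52, wider than in 30.5% to 53.0% of the genes tested. The plot of levels by library shows these values.

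**Figure D2:**
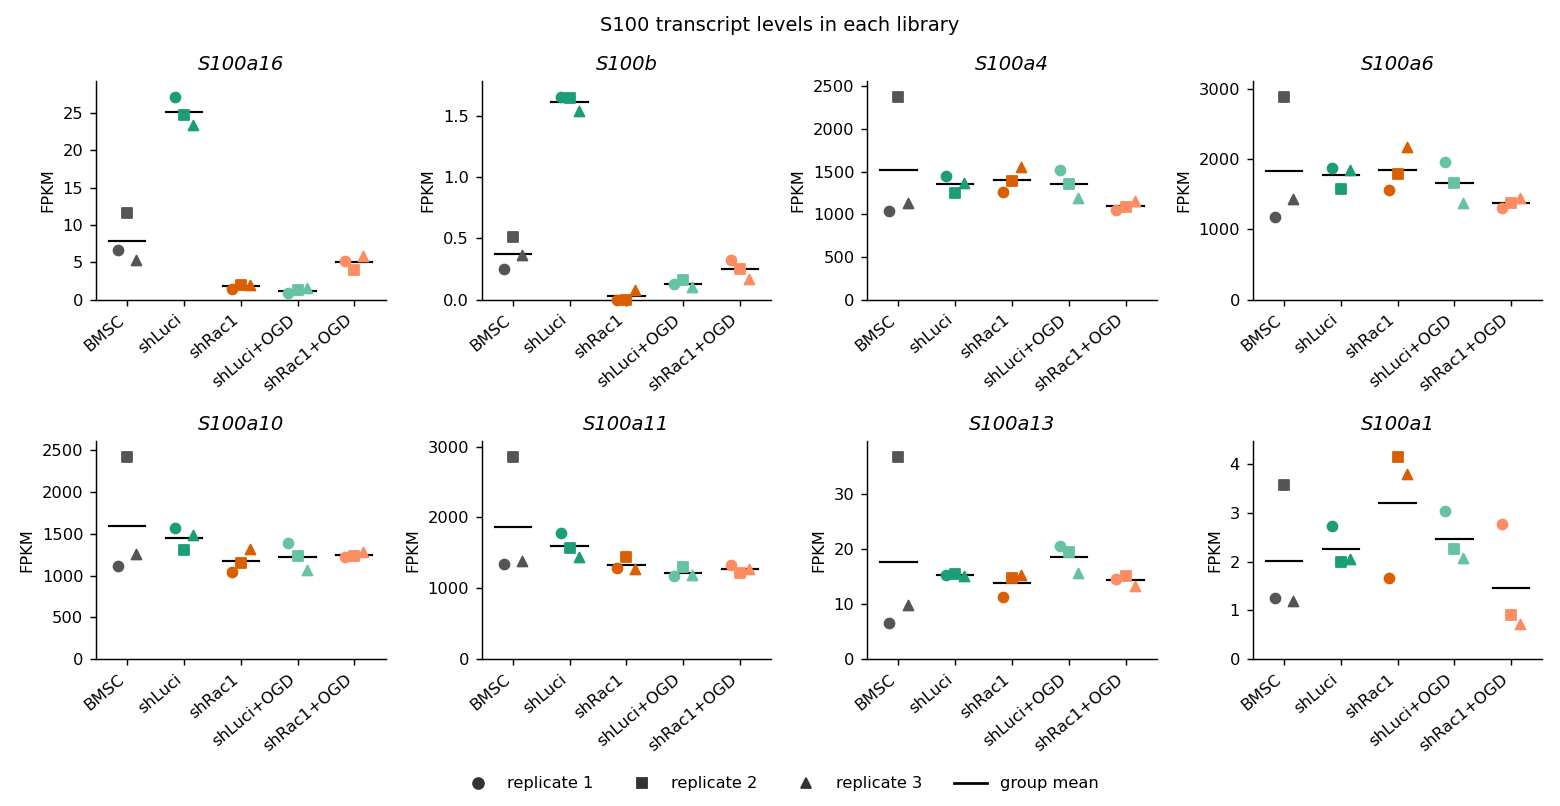
FPKM of each S100 gene in each library, with 1 panel per gene, 1 point per library (the marker shape gives the replicate) and a line at the group mean. S100a16 and S100b stood highest in all 3 shLuci libraries, and for the 4 abundant genes and S100a13 BMSC replicate 2 lay above every other library.

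S100a16, a widely expressed member of the family linked in mouse cells to adipocyte formation, had the largest differences. In FPKM it stood at 6.62, 11.5 and 5.25 in the BMSC libraries and at 27.1, 24.7 and 23.4 in shLuci. It stood at 1.40, 1.99 and 1.99 in the libraries labelled shRac1, at 0.911, 1.22 and 1.49 in shLuci+OGD, and at 5.22, 3.91 and 5.82 in shRac1+OGD. Every shLuci library was above every other library, and the shLuci+OGD and shRac1 libraries held the lowest values and overlapped. BMSC and shRac1+OGD lay between them and overlapped with each other. The group means were 25.1 ± 1.87 in shLuci, 7.80 ± 3.30 in BMSC, 4.99 ± 0.976 in shRac1+OGD, 1.79 ± 0.342 in shRac1 and 1.21 ± 0.289 in shLuci+OGD (SD, n = 3 each). In that order, shRac1+OGD did not pass the test against BMSC (log2 -0.54, adjusted p = 0.157) and shLuci+OGD did not pass it against shRac1 (log2 -0.43, adjusted p = 0.296).

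S100b, a calcium sensor that is also secreted and acts on RAGE, followed a similar course at a level near the floor of the table. It stood at 1.65, 1.65 and 1.54 FPKM in shLuci and at 0.248, 0.508 and 0.361 in BMSC. In shRac1+OGD it was 0.323, 0.253 and 0.170, and in shLuci+OGD 0.124, 0.158 and 0.106. In the libraries labelled shRac1 it was listed at 0 in replicates 1 and 2 and at 0.0801 in replicate 3. The shLuci libraries were again above all others, and the BMSC and shRac1+OGD libraries overlapped, while the remaining pairs of groups did not overlap. At such levels the size of a fold change is set largely by the pseudocount, so the log2 changes of S100b below are tied to the 0.5 that was added. S100b was tested only because it was high in shLuci. Its calls against shLuci, its interaction, the range of its group means and its place in the counts of members are therefore given as description. Its calls between groups other than shLuci rest on values of at most 0.508 FPKM. They were lost when only the libraries of the groups compared were fitted, and are given as description too.

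Infection with the shLuci virus was compared with no infection, a comparison that shows what the virus and its hairpin went with in undeprived cells. S100a16 was 3.23-fold higher in shLuci than in BMSC on the log2(FPKM + 0.5) scale (log2 1.69 ± 0.24 SE, adjusted p = 0.00049), and S100b was 2.44-fold higher (log2 1.29 ± 0.13, adjusted p = 3.5e-05). These were the only 2 of 8 members called, both higher, where 14.3% of all genes tested were called and 9.99% were called higher. In the authors' deposited table of this comparison S100a16 was listed 3.09-fold higher with a q-value of 0.109, and S100b 1.91-fold higher with a q-value of 0.0337. With only these 6 libraries in the fit the S100a16 call was lost (adjusted p = 0.0551, over all 26 alternatives 1.64e-09 to 0.0551).

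The virus labelled shRac1 went with the opposite direction. S100a16 was 3.48-fold lower in shRac1 than in BMSC (log2 -1.80 ± 0.24, adjusted p = 0.000399) and S100b was 1.65-fold lower (log2 -0.72 ± 0.13, adjusted p = 0.00338). No other member of the 8 was called, where 10.7% of all genes were, 4.31% in the lower direction. The authors' deposited table lists S100a16 as 3.03-fold higher in BMSC than in shRac1 with a q-value of 0.151. Both calls were lost when only the libraries of the 2 groups were fitted, with an adjusted p of 0.0657 for S100a16 (1.5e-06 to 0.0657 over 26 alternatives) and 0.151 for S100b (2.64e-05 to 0.151 over 25).

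Set directly against each other in undeprived cells, the 2 viruses were furthest apart. S100a16 was 11.2-fold lower in the libraries labelled shRac1 than in shLuci (log2 -3.49 ± 0.24, adjusted p = 6.55e-07), with 23.4 FPKM in the lowest shLuci library and 1.99 in the highest shRac1 library. S100b was 4.02-fold lower (log2 -2.01 ± 0.13, adjusted p = 3.92e-07). They were the 2 members called, both lower, where 16.7% of all genes tested were called and 9.82% were called lower. The authors' deposited table lists both as higher in shLuci than in shRac1, S100a16 by 9.38-fold with a q-value of 0.0016 and S100b by 2.55-fold with a q-value of 0.00133. Their folds are on a scale with a pseudocount of 1, and with that pseudocount the log2 changes here were -3.23 and -1.35, the same sizes as in that table. The log2 change of S100a16 kept to -3.75 to -3.23 over 26 alternatives, and that of S100b ranged from -3.82 to -1.35 over 25, the ends being the smaller and the larger pseudocount.

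Going by the sample titles, oxygen and glucose deprivation was followed by opposite changes in the 2 kinds of infected cell. The authors' deposited lists, read by the same titles, pair shLuci+OGD with undeprived shRac1. They pair no OGD group with the undeprived group of its own virus. All comparisons of groups given here, those of the undeprived groups included, therefore hold only as far as the titles do. In shLuci cells S100a16 fell 15.1-fold (log2 -3.92 ± 0.24, adjusted p = 1.27e-07), from 23.4 to 27.1 FPKM down to 0.911 to 1.49. S100b fell 3.36-fold there (log2 -1.75 ± 0.13, adjusted p = 6.42e-07). These were 2 of 8 members, where 22.3% of all genes tested were called and 9.18% were called lower. The other 6 had log2 changes of -0.38 to 0.26 and a lowest adjusted p of 0.285.

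In cells carrying the shRac1 virus S100a16 rose 2.39-fold after deprivation (log2 1.25 ± 0.24, adjusted p = 0.00403), from 1.40 to 1.99 FPKM up to 3.91 to 5.82. S100b rose 1.42-fold (log2 0.51 ± 0.13, adjusted p = 0.022), with all 3 shRac1+OGD libraries above the highest shRac1 library. Again 2 of 8 members were called, where 11.9% of all genes were called and 7.76% were called higher. The S100b call was lost without shRac1 replicate 1 (adjusted p = 0.0837), without shRac1 replicate 2 (0.0895), without shRac1+OGD replicate 1 (0.102), without shRac1+OGD replicate 2 (0.0742), with quantile normalization (0.506) and with only the libraries of the 2 groups (0.0508), over a range of 3.85e-05 to 0.506 in 25 alternatives. S100a16 was called in all 26 alternatives, with adjusted p from 5.01e-07 to 0.0231.

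The difference between the 2 responses was tested as an interaction, the OGD change in shRac1 cells minus that in shLuci cells. It was 5.17 ± 0.34 on the log2 scale for S100a16 (adjusted p = 3.41e-07) and 2.25 ± 0.18 for S100b (adjusted p = 2.02e-06). They were the 2 of 8 members called, both positive, where 16.7% of all genes were called and 8.88% were positive. S100b was admitted to the test only by its high shLuci values, which also enter this interaction, so its value is a description. The interactions of the other 6 lay between -1.08 (S100a1) and 0.34 (S100a10), with a lowest adjusted p of 0.284.

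**Figure D3:**
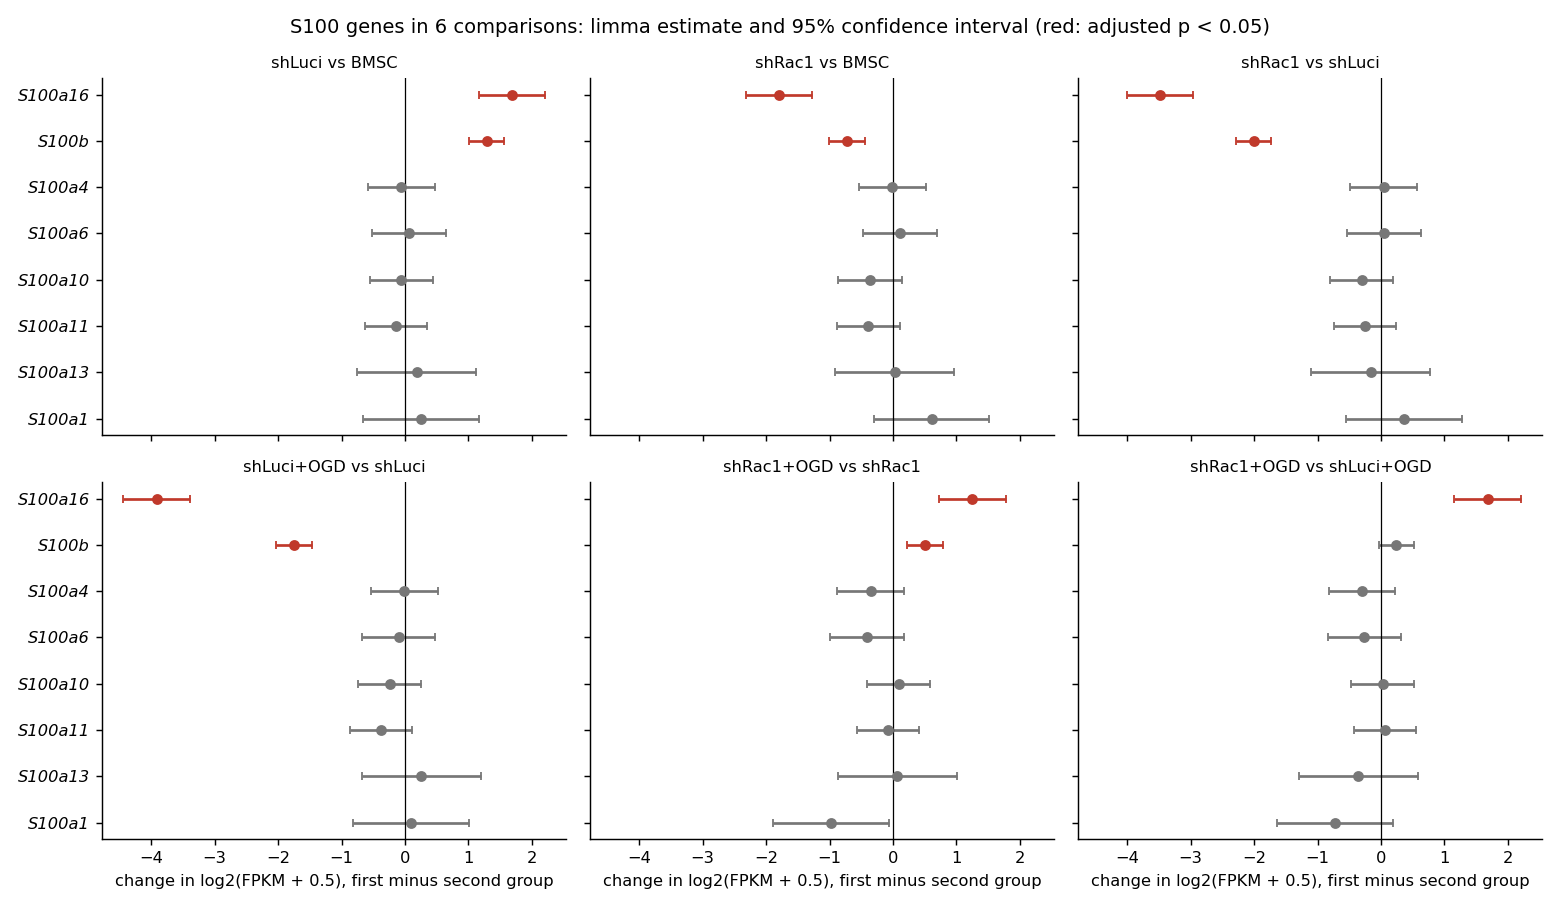
Change in log2(FPKM + 0.5), first group minus second, for each S100 gene in 6 comparisons, with limma's 95% confidence interval and calls at an adjusted p below 0.05 in red. S100a16 and S100b rise in shLuci against BMSC, fall in shRac1 against shLuci and in shLuci+OGD against shLuci, and rise in shRac1+OGD against shRac1, while the intervals of S100a4, S100a6, S100a10, S100a11 and S100a13 span 0 in all 6.

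After deprivation the order of the 2 viruses was the reverse of that before it. S100a16 was 3.21-fold higher in shRac1+OGD than in shLuci+OGD (log2 1.68 ± 0.24, adjusted p = 0.000702), and was the 1 member called, where 7.43% of all genes were called and 3.85% were called higher. S100b did not pass (log2 0.25 ± 0.13, 95% interval -0.03 to 0.53, adjusted p = 0.385), although the lowest shRac1+OGD library, at 0.170 FPKM, lay above the highest shLuci+OGD library, at 0.158. With quantile normalization that difference of S100b was -0.03 (adjusted p = 0.985, range 0.0867 to 0.985 over 25 alternatives). The authors' deposited table lists S100a16 as 2.70-fold higher in shRac1+OGD than in shLuci+OGD with a q-value of 0.0258.

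The remaining 4 pairs of groups were added after the files had been seen, and they differ in both virus and deprivation. In shRac1+OGD against shLuci, S100a16 was 4.71-fold lower (log2 -2.24 ± 0.24, adjusted p = 5.24e-05) and S100b 2.83-fold lower (log2 -1.50 ± 0.13, adjusted p = 7.74e-06), 2 of 8 members where 10.8% of genes were called, 4.89% lower. In shLuci+OGD against BMSC, S100a16 was 4.68-fold lower (log2 -2.23 ± 0.24, adjusted p = 2.26e-05) and S100b 1.38-fold lower (log2 -0.46 ± 0.13, adjusted p = 0.0172), 2 of 8 where 31% were called, 8.2% lower. That last call of S100b was lost without BMSC replicate 2 (adjusted p = 0.0615) and without shLuci+OGD replicate 3 (0.0566), with quantile normalization (0.166) and with only the libraries of the 2 groups (0.157), with a range of 0.00758 to 0.166 over 25 alternatives. In shLuci+OGD against shRac1 no member was called, where 15.7% of genes were, and the S100b change was 0.26 (adjusted p = 0.226). In shRac1+OGD against BMSC no member was called either, where 13.5% were. At an unadjusted p below 0.05 in limma, S100a16 passed in the second of these comparisons and no member passed in the first.

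Markers of other cell types also differed between groups, and none of the sums given here followed these genes over all groups. The 4 of 6 chondrocyte markers with a row (Col11a2, Sox9, Acan and Matn3) summed to 222.6 to 257.4 FPKM in shLuci, 104.5 to 160.7 in BMSC, 136.7 to 159.6 in shRac1, 190.6 to 219.9 in shLuci+OGD and 190.0 to 209.0 in shRac1+OGD. This sum was highest in shLuci, as S100b and S100a16 were, but it was higher in shLuci+OGD than in BMSC, where both S100 genes were lower, and its part in the result was not tested. The 2 of 6 adipocyte markers with a row, Pparg and Fabp4, had low sums: 0.345 to 0.951 FPKM in BMSC, 0.595 to 0.915 in shLuci and 1.235 to 1.815 in shRac1. After deprivation the sums were 1.74 to 2.84 in shLuci+OGD and 0.774 to 1.048 in shRac1+OGD. With OGD they changed in the reverse direction to S100a16 in both kinds of infected cell. BMSC and shLuci overlapped, unlike for S100a16, and the part of these markers was not tested. The 6 smooth muscle markers summed to 2988.7 to 3497.3 FPKM in shLuci+OGD and 5313.5 to 10711.2 in the other groups. The 4 of 7 osteoblast markers with a row summed to 33.4 to 38.1 FPKM in shLuci, 28.4 to 31.6 in BMSC, 22.5 to 23.8 in shRac1, 12.2 to 13.7 in shLuci+OGD and 13.5 to 14.9 in shRac1+OGD. They were highest in shLuci too, but did not separate the OGD groups the way S100a16 did, and their part was not tested.

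S100a4, known as fibroblast-specific protein and a binder of non-muscle myosin heavy chain, was one of the 4 abundant members. In the undeprived groups it stood at 1038, 2370 and 1130 FPKM in BMSC, at 1453, 1251 and 1367 in shLuci and at 1261, 1394 and 1554 in shRac1. After deprivation it was 1513, 1352 and 1190 in shLuci+OGD and 1052, 1087 and 1151 in shRac1+OGD. The shRac1+OGD libraries lay below all shLuci, shRac1 and shLuci+OGD libraries, whereas the BMSC libraries spanned the whole range. The widest change, shRac1+OGD against BMSC, was -0.36 on the log2 scale (95% interval -0.89 to 0.17, adjusted p = 0.324), and without BMSC replicate 2 it was 0.02.

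S100a6 (calcyclin), which binds the ubiquitin-ligase adaptor Cacybp, was the most abundant member. Its group means were 1829 ± 922 FPKM in BMSC, 1772 ± 165 in shLuci, 1846 ± 311 in shRac1, 1668 ± 288 in shLuci+OGD and 1377 ± 73.1 in shRac1+OGD (SD, n = 3). The libraries ran from 1176 FPKM in BMSC replicate 1 to 2884 in BMSC replicate 2, so the uninfected group alone covered the range of all the others. The widest change, shRac1+OGD against shRac1, was -0.41 on the log2 scale (95% interval -0.99 to 0.17, adjusted p = 0.442).

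S100a10, the light chain of the annexin A2 complex that holds plasminogen activators at the cell surface, had means of 1597 ± 716 FPKM in BMSC, 1447 ± 134 in shLuci, 1173 ± 139 in shRac1, 1227 ± 161 in shLuci+OGD and 1245 ± 33.0 in shRac1+OGD. Its widest change was -0.36 (shRac1 against BMSC, 95% interval -0.86 to 0.14, adjusted p = 0.337), and without BMSC replicate 2 that difference was -0.02. S100a11, a partner of annexin A1 at membranes, had means of 1859 ± 863, 1592 ± 173, 1336 ± 91.6, 1220 ± 75.1 and 1269 ± 56.0 FPKM in the same order. Every shLuci library of S100a11 except replicate 3, at 1436 FPKM, was above every library of the other infected groups, and the groups shLuci and shLuci+OGD did not overlap. Its widest change was -0.52 (shLuci+OGD against BMSC, 95% interval -1.01 to -0.03), which failed the adjustment (adjusted p = 0.102) and was -0.16 without BMSC replicate 2. The rat annotation lists near-identical copies of S100a10 and S100a11, and no source used here states how reads shared with such copies were assigned, so the levels of these 2 genes are uncertain to that extent.

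S100a13, which takes part in the non-classical release of Fgf1 and interleukin-1 alpha, stood at 6.49, 36.8 and 9.89 FPKM in BMSC, 15.4, 15.5 and 15.2 in shLuci and 11.3, 14.8 and 15.3 in shRac1. It stood at 20.6, 19.5 and 15.8 in shLuci+OGD and 14.5, 15.2 and 13.4 in shRac1+OGD. Apart from BMSC replicate 2, the shLuci+OGD libraries were the highest and the other 2 uninfected libraries the lowest. The widest change, shLuci+OGD against BMSC, was 0.44 (95% interval -0.50 to 1.38, adjusted p = 0.455), and without BMSC replicate 2 it was 1.16 and was called.

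S100a1, known from heart muscle as a regulator of calcium release and reuptake, was expressed at 0.729 to 4.15 FPKM. It was 1.66, 4.15 and 3.79 in shRac1 and 2.78, 0.897 and 0.729 in shRac1+OGD, and 1 library of each group lay within the other group's range. The difference was -0.98 on the log2 scale (95% interval -1.89 to -0.07) and failed the adjustment (adjusted p = 0.178). S100a3, the only other S100 gene with a row among 12 further names looked up, had means of 0.796 to 1.30 FPKM and was called in none of the 10 pairs.

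The intervals of these 6 genes were narrower without BMSC replicate 2. In it the members were above the mean of the other 2 BMSC libraries by 1.03 to 1.15 on the log2 scale for the 4 abundant genes, 1.24 for S100a1, 2.13 for S100a13, 0.91 for S100a16 and 0.33 for S100b, whereas the median of all genes tested was -0.15. The 94 ribosomal protein genes were higher there too, with a median of 1.19. Since all groups share a spread in the fit, leaving this library out narrowed the intervals of these 6 members in all comparisons, and 21.1% to 50.1% of all genes were then called in the 10 pairs. S100a11 was then called lower than in shLuci in shRac1 (log2 -0.25 ± 0.08), in shLuci+OGD (-0.38 ± 0.08) and in shRac1+OGD (-0.32 ± 0.08). S100a10 was called lower in shRac1 than in shLuci (-0.31 ± 0.11). In shRac1+OGD against shRac1, S100a4 (-0.35 ± 0.10), S100a6 (-0.41 ± 0.14) and S100a1 (-0.98 ± 0.33) were called lower. S100a4 was also called lower in shRac1+OGD than in shLuci+OGD (-0.30 ± 0.10) and in shLuci (-0.31 ± 0.10). S100a13 was called higher in shLuci+OGD than in shRac1 (0.42 ± 0.14). Against the 2 BMSC libraries left, S100a13 was called higher in shLuci (0.90 ± 0.16), shRac1 (0.74 ± 0.16), shLuci+OGD (1.16 ± 0.16) and shRac1+OGD (0.80 ± 0.16). Of the abundant genes, S100a6 was called higher than BMSC in shLuci (0.45 ± 0.15) and shRac1 (0.50 ± 0.15). S100a4 was called higher than BMSC in shLuci (0.32 ± 0.11, against -0.05 with all libraries), shRac1 (0.37 ± 0.11) and shLuci+OGD (0.31 ± 0.11). The members called in that fit numbered 5 in shLuci against BMSC, where 32% of all genes were called, 5 in shRac1 against BMSC (21.1%), 4 in shRac1 against shLuci (37.3%), 3 in shLuci+OGD against shLuci (45.7%), 5 in shRac1+OGD against shRac1 (30.1%) and 2 in shRac1+OGD against shLuci+OGD (21.5%). S100a16 and S100b remained the only 2 members with a called interaction. These values come from a choice made with the data known.

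The 2 genes that changed lie on different chromosomes. In the coordinates of the deposited table, whose genome build the sources used here do not state, S100a1, S100a13, S100a16, S100a3, S100a4 and S100a6 lie within 108 kb on chromosome 2 (189900667 to 190008511), S100a11 and S100a10 lie 3858.4 kb further on, and S100b lies alone on chromosome 20 (13130636 to 13142856). S100a16 (189922996 to 189928848, plus strand) has S100a13 10.5 kb to one side and S100a3 27 kb to the other, and neither of these was called in any pair of groups. Chtop, the nearest tested gene outside the family next to S100a1, encodes a chromatin and RNA-export factor and was called in 0 of 10 pairs (log2 -0.22 to 0.20). Dip2a and Prmt2, on either side of S100b at 3.15 kb and 13.4 kb, were called in 0 of 10 pairs as well. Further from the members, Sprr1a, beyond the S100a1 to S100a6 group, was called in 8 of 10 pairs (log2 -1.60 to 3.06), and Lce1m and Them4, on either side of S100a11 and S100a10, in 7 (log2 -2.73 to 1.18) and 0 of 10. In the single pairs 7.43% to 31% of all genes tested were called.

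Genes whose course over the 15 libraries was most like that of the changing members were found by the root mean square difference of log2 values centred on their own mean. Only tested genes with a symbol and a mean of at least 5 FPKM were compared, so low genes such as S100b could not be chosen. For S100a16 the nearest 3 of 7757 genes were Fstl3, an inhibitor of activin (0.35), Rassf4, a Ras-association domain protein (0.36), and Aard (0.39). Fstl3 had means of 14.5, 25.5, 3.08, 2.36 and 8.34 FPKM in BMSC, shLuci and shRac1, then shLuci+OGD and shRac1+OGD. For S100b the nearest 3 of 7758 were Aebp1, a secreted carboxypeptidase-like matrix protein (0.26), Gzmb, the protease granzyme B (0.26), and Vdr, the vitamin D receptor (0.26). Vdr had means of 8.68, 18.5, 5.06, 4.21 and 7.55 FPKM in the same order. S100a16 and S100b differed from each other by 0.81. For S100a1, whose range of means was the next widest, the nearest were Mgst3 (0.36), Uxt (0.37) and Crcp (0.39). These are descriptions over the same libraries and carry no test.

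**Figure D4:**
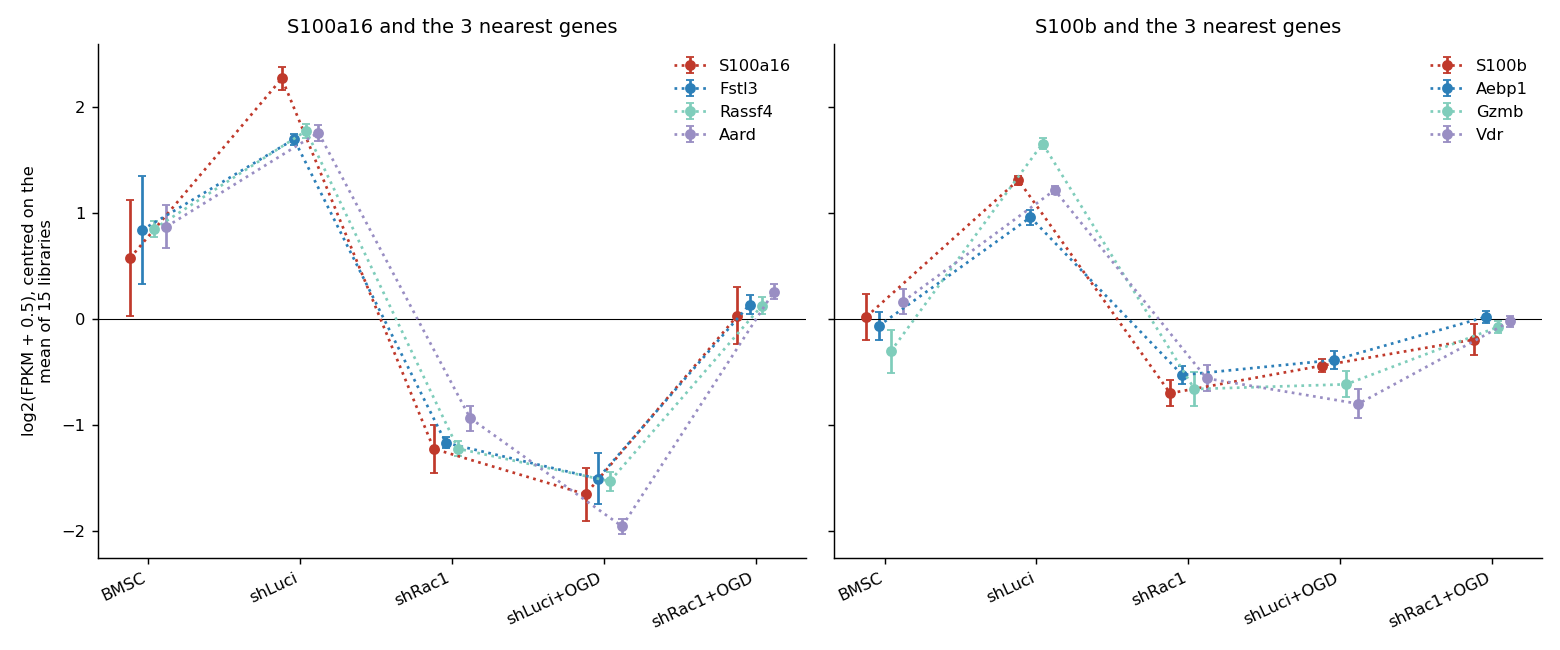
Group mean ± SD (n = 3) of log2(FPKM + 0.5), centred on the mean of the 15 libraries, for S100a16 with its 3 nearest genes and for S100b with its 3 nearest genes. All 8 genes peak in shLuci, and the 3 genes nearest S100a16 are lowest in shLuci+OGD, as S100a16 is.

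Among known partners of S100 proteins, Fgf1 had the smallest p for the interaction, with the sign of S100a16. Fgf1, the growth factor exported with S100a13, had 20.2 ± 1.85 FPKM in BMSC, 20.0 ± 1.15 in shLuci, 11.7 ± 0.375 in shRac1, 11.02 ± 0.274 in shLuci+OGD and 19.8 ± 0.602 in shRac1+OGD (SD, n = 3). The shRac1 and shLuci+OGD libraries, at 10.7 to 12.1 FPKM, lay below all others, at 18.5 to 22.2. It was lower in shRac1 than in shLuci (log2 -0.75 ± 0.08, adjusted p = 2.03e-05), fell with OGD in shLuci cells (-0.83 ± 0.08, adjusted p = 5.15e-06) and rose with OGD in shRac1 cells (0.74 ± 0.08, adjusted p = 4.05e-05). The interaction was 1.57 ± 0.11 (adjusted p = 5.31e-07). It did not pass the test in shLuci against BMSC (-0.01 ± 0.08, adjusted p = 0.947) or in shRac1+OGD against shLuci (-0.01 ± 0.08, adjusted p = 0.959), where S100a16 was called. S100a13 itself was called in none of these pairs.

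Of the annexin partners, Anxa2 passed no test and Anxa1 rose in shLuci cells. Anxa2, the partner of S100a10, had means of 733 ± 171 FPKM in BMSC, 941 ± 54.9 in shLuci, 762 ± 36.0 in shRac1, 829 ± 48.2 in shLuci+OGD and 754 ± 17.2 in shRac1+OGD and was called in no pair. Ahnak, the large scaffold that the S100a10 complex binds, was called only in shLuci against BMSC (0.52 ± 0.15, adjusted p = 0.0333). Anxa1, the partner of S100a11, rose with OGD in shLuci cells, from 674 ± 36.1 to 950 ± 109 FPKM (log2 0.49 ± 0.11, adjusted p = 0.00457), and its change in shRac1 cells was 0.05 ± 0.11 (adjusted p = 0.903). The interaction of Anxa1 did not pass (-0.44 ± 0.15, adjusted p = 0.0682).

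Of the other partners, Cacybp rose with OGD in shLuci cells from 60.5 ± 2.03 to 95.6 ± 11.6 FPKM (log2 0.65 ± 0.13, adjusted p = 0.0022), with an interaction of -0.70 ± 0.18 (adjusted p = 0.0163), the opposite sign to that of S100a16 and Fgf1. Myh9, the non-muscle myosin heavy chain bound by S100a4, had means of 323 to 410 FPKM and was called in no pair. The receptors were low: Ager, which encodes RAGE, had means of 1.36 to 2.09 FPKM and was called only in shLuci+OGD against shRac1 (0.48 ± 0.14, adjusted p = 0.0393). Tlr4 had 0.703 ± 0.0545 FPKM in shLuci and 0.232 to 0.407 in the other group means, and was below the filter and not tested.

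The partners were also counted as a list. Of 44 names 35 had a row and 34 were tested. With OGD in shLuci cells 5 rose and 3 fell (22.3% of all genes called), with OGD in shRac1 cells 3 rose and 0 fell (11.9%), and in shRac1 against shLuci 1 was higher and 4 were lower (16.7%). In shRac1+OGD against shLuci+OGD 2 were higher and 3 lower (7.43%), in shLuci+OGD against BMSC 12 were higher and 4 lower (31%), and in shRac1+OGD against shLuci 2 were higher and 0 lower (10.8%). Of the 8 annexins tested, 3 rose and 1 fell with OGD in shLuci cells, led by Anxa11 (0.50 ± 0.08, adjusted p = 0.000346) and Anxa7 (0.38 ± 0.07, adjusted p = 0.00175), and 0 changed with OGD in shRac1 cells. Of the 32 tested rows of other EF-hand proteins, 4 rose and 3 fell with OGD in shLuci cells, led by the protease subunit Capn1 (0.33 ± 0.06, adjusted p = 0.0012). In shRac1 against shLuci only 1 of the 32, Efhd2, was called, and it was lower (-0.36 ± 0.08, adjusted p = 0.00846). The median log2 change of the EF-hand rows was 0.03 with OGD in shLuci cells, against 0.08 for all genes tested.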

How the data were processed

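RNA was extracted with Trizol and sequenced from standard Illumina libraries, per the labels' protocols. The tools used upstream include HISAT2 and StringTie 1.2.3, per the submitters' processing notes. No source used here states the genome build. The authors deposited FPKM values for each gene in each library, per the file headers. For 6 of the 10 pairs of groups the authors deposited gene lists that hold the ratio (fold), log2 fold, p-value and q-value of each gene, without naming their test.

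Groups were taken from the sample titles. The filter kept genes that reached 1 FPKM in 3 or more of the 15 libraries. FPKM were used as log2(FPKM + 0.5), a scale that understates changes of low genes. A model of 5 group means was fitted with limma 3.58.1 in R 4.3.3 (empirical Bayes with a trend, two-sided), with Benjamini-Hochberg adjustment over all 11515 genes. The fit was tested on simulated data. The comparisons of the undeprived groups, of OGD within each virus and of the viruses after OGD and the interaction were planned, and 4 comparisons were added after the files were seen. Alternatives were other pseudocounts, filters and normalizations, array weights, fits of only the groups compared, a replicate block, and leaving out each library.

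Named genes were the 8 members, Rac1, fixed textbook partners, up to 2 called genes of other lists with the smallest p, the 3 genes of nearest course and the nearest neighbours in the genome. The members and lists were chosen with earlier results of these data known. Depth is unknown, so no counting interval was computed. Values of some genes in the fixed lists are not reported here.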

Additional observations from a re-analysis of the deposited data

Results flagged for a closer look

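The response to oxygen and glucose deprivation differed between cells carrying the shLuci virus and cells labelled shRac1 for 2 of the 8 S100 genes, by a test of the difference itself (limma's interaction term). For S100a16 the difference was 5.17 on the log2 scale, the sum of a rise of 1.25 in shRac1 cells and a fall of 3.92 in shLuci cells, and it was called in all 26 alternatives, with values from 4.66 to 5.72. For S100b it was 2.25, with values from 1.49 to 4.40 over 25 alternatives, and it was called in all of them. S100b was tested only because it was high in shLuci, so its value is a description. Rac1 passed no test between the same libraries, and S100b was listed at 0 in 2 of the 3 libraries labelled shRac1.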

How the results depend on the processing

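Of the counts of S100 genes called, most kept to within 1.5 times their main value, and the following did not. Requiring a mean of 5 FPKM removed S100b by construction and left 1 member in each of the 8 comparisons that had 2. Array weights, in an estimation that stopped before reaching its convergence tolerance, gave 5 members in shLuci against BMSC, 6 in shRac1 against BMSC, 7 in shRac1 against shLuci, 6 in shRac1+OGD against shRac1, 2 in shRac1+OGD against shLuci+OGD, 4 in shLuci+OGD against shRac1, 5 in shRac1+OGD against shLuci, 4 in shLuci+OGD against BMSC, 1 in shRac1+OGD against BMSC and 6 for the interaction. They gave BMSC replicate 2 a weight of 0.00476. Fitting only the groups compared gave 1 in shLuci against BMSC, 0 in shRac1 against BMSC, 2 in shRac1+OGD against shLuci+OGD, 1 in shLuci+OGD against shRac1, 5 in shRac1+OGD against shLuci and 1 in shLuci+OGD against BMSC. Quantile normalization gave 1 in shRac1+OGD against shRac1, and turned the uncalled S100b change in shRac1+OGD against shLuci+OGD to -0.026. Leaving out 1 library at a time gave 2 to 5 members in shLuci against BMSC, 2 to 5 in shRac1 against BMSC, 2 to 4 in shRac1 against shLuci, 2 to 3 in shLuci+OGD against shLuci, 1 to 5 in shRac1+OGD against shRac1, 1 to 2 in shRac1+OGD against shLuci+OGD, 0 to 2 in shLuci+OGD against shRac1, 2 to 4 in shRac1+OGD against shLuci, 1 to 3 in shLuci+OGD against BMSC, 0 to 1 in shRac1+OGD against BMSC and 2 for the interaction each time. BMSC replicate 2 gave the upper end in each range that has one above the main count, together with BMSC replicate 3 in shRac1+OGD against BMSC and with BMSC replicates 1 and 3 in shLuci+OGD against BMSC. S100a16 became called without BMSC replicate 3 in shRac1+OGD against BMSC (adjusted p = 0.0475, range 0.0475 to 0.48) and without BMSC replicate 2 in shLuci+OGD against shRac1 (0.0498, range 0.0152 to 0.624). Beyond what their construction shows, the cause of these moves was not tested.

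The replicate block changed no count of members called (2 in shRac1 against shLuci, with S100a16 at -3.49). Of 30 correlations of same-numbered libraries between groups, 11 exceeded 0.1 (range -0.64 to 0.56). In 1 of 10 pairs of groups, BMSC and shLuci+OGD, all 3 did. Each correlation used deviations from the mean of only 3 libraries, so it cannot tell whether same-numbered libraries shared a culture or day. The precision is limited by 3 libraries a group and by the unknown depth, most of all for S100b at under 2 FPKM.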
